A study of Homo sapiens with 12 samples.

Results

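Amiodarone, a cationic amphiphilic antiarrhythmic drug, was compared with DMSO as vehicle in LB cells. The comparison took every gene with a mean of at least 1 TPM (transcripts scaled to a fixed total per library) across the 6 libraries compared. That rule kept 13899 of 57152 genes with values. TMEM178A lay just inside it at a mean of 1 TPM and NCKAP5-AS2 just outside at 0.998 TPM. The labels give LB cells as a cell line with A549 cells, a human lung adenocarcinoma line, as their source, and do not say how the line was made. All cultures were seeded and kept for 24 h before treatment. The 3 LB amiodarone libraries came from LB cells that then had 10 µM amiodarone for 24 h, and the 3 LB DMSO libraries from LB cells that had 0.1% DMSO for 24 h. No DMSO percentage is given for the amiodarone libraries. Neither group had been given hydroxypropyl-β-cyclodextrin (HPbCD), a ring-shaped sugar that binds cholesterol. The other 6 of the 12 libraries, A549 cells with DMSO and LB cells with 10 mg/ml HPbCD and amiodarone, entered the fit only to estimate the spread. The labels do not say whether libraries of a group came from separate cultures, so p-values measure the spread between these libraries, which may be technical.

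Cationic amphiphilic drugs gather in lysosomes, where they slow the breakdown and export of lipids. Cholesterol that enters a cell in LDL is freed in the lysosome and leaves it through NPC2 and NPC1. When cholesterol in the endoplasmic reticulum falls, SCAP carries the SREBP transcription factors to the Golgi, where they are cut, and the freed parts switch on genes of sterol and fatty acid synthesis and of LDL uptake. The transcription factors TFEB and TFE3 drive genes of lysosomes and autophagy, and ATF4 drives genes that answer stress of protein synthesis. In the lung, alveolar type II cells store surfactant in lamellar bodies, which are organelles related to lysosomes.

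TPM values carry no read depth, so counting error is unknown. Log2 values correlated at 0.985 to 0.988 between libraries of the same group and at 0.981 to 0.983 between the groups. The first principal component, with 32.9% of the variance, ran from -17.5 to -15.2 in the DMSO libraries and from 15.9 to 16.9 in the amiodarone libraries. Mitochondrially encoded transcripts took 5.61 to 8.49% of TPM in the 6 libraries and ribosomal protein transcripts 17.7 to 19%, with overlap between the groups. The epithelial keratins KRT8, KRT18 and KRT7 were at 1121 to 2007 TPM and the type II cell genes SFTPB, SFTPC, SFTPD and ABCA3 at 193 to 659 TPM in every LB library compared. Other type II cell genes were near 0 in these 6 libraries. Mean TPM was 0.005 for SFTPA1, 0.01 for SFTPA2, 0.05 for PGC, 0.08 for NKX2-1, 0.11 for SLC34A2 and 0.297 for LAMP3. In the A549 libraries SFTPB was listed at 0, SFTPC and SFTPD lay under 1 TPM and ABCA3 was at 18 to 19.7 TPM. Markers of other cells were low. Summed TPM over 10 fibroblast markers was 15.2 to 18.2 with DMSO and 15.5 to 20.8 with amiodarone, with 2 markers at 0 in all 6 libraries. Over 10 leukocyte markers it was 3.43 to 5.45 and 1.77 to 3.83, with 3 at 0 in all 6, and over 8 endothelial markers 0.25 to 0.49 and 0.36 to 0.63, with 2 at 0 in all 6.

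Amiodarone raised 685 genes (4.93% of those tested) and lowered 525 (3.78%), 8.71% in either direction, by limma on log2(TPM + 1) with Benjamini-Hochberg adjusted p under 0.05. The rises were larger than the falls. The median called rise was 1.38-fold and the median called fall 1.22-fold. At least 2-fold differences numbered 78 genes higher (0.561%) and 7 lower (0.0504%). All differences below are amiodarone minus DMSO on the log2(TPM + 1) scale, which understates the change of low genes, with levels as mean ± SD over n = 3 libraries. Of the 78 genes, 44 belonged to at least 1 of the 49 gene lists used here, which hold 906 of the tested genes. The lists were chosen with earlier results of these data known, so nothing is concluded from this overlap. By library position alone, 2112 genes (15.2%) had all 3 amiodarone libraries above all 3 DMSO libraries and 2059 (14.8%) had them all below.

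**Figure D1:**
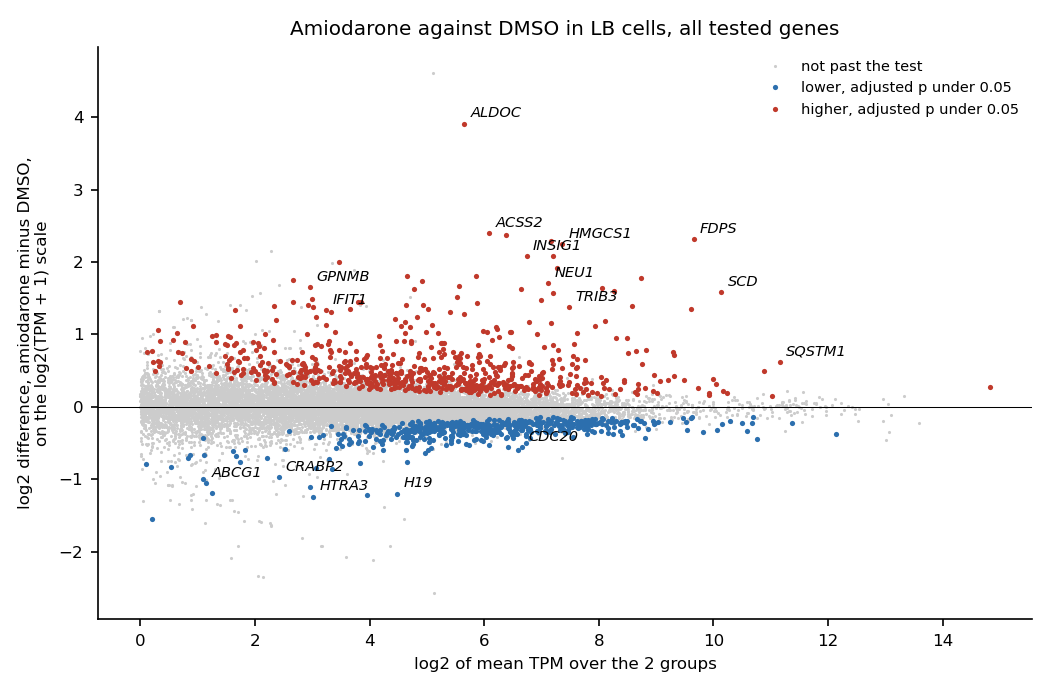
Each dot is 1 of the 13899 tested genes, with log2 mean TPM over both groups on the horizontal axis and the fitted log2 difference, amiodarone minus DMSO, on the vertical axis; red and blue dots passed the test. ALDOC stands highest among genes past the test at 3.91, rises reach further from 0 than falls, and HTRA3 at -1.24 is among the largest falls.

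The number of calls depended on each library. With 1 library left out at a time, rises numbered 442, 478 and 431 without LB DMSO replicates 1, 2 and 3 and 491, 461 and 430 without LB amiodarone replicates 1, 2 and 3. Falls numbered 247, 276 and 205 without the DMSO replicates in the same order and 345, 220 and 297 without the amiodarone replicates. In all 6 of these leave-one-out fits 348 rises and 143 falls passed. At least 2-fold rises numbered 71 to 86, and 72 of the 78 held in all 6 fits. At least 2-fold falls numbered 4 to 9, with 4 without LB DMSO replicate 1, and 3 of the 7 held in all 6 fits. Genes named below passed in all 6 leave-one-out fits unless a loss is stated. Genes under 1 TPM in the DMSO group alone numbered 190, of which 16 were called higher, and 172 genes were under 1 TPM with amiodarone alone, of which 3 were called lower.

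Genes of cholesterol synthesis rose together. Of 21 members tested, 19 rose, none fell and 2 did not pass, with a median difference of 1.62 against -0.0031 over all tested genes. The 19 calls held in all 6 leave-one-out fits. FAXDC2, the other listed member, was under 1 TPM. The largest rise was 2.38, for MSMO1.

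The first enzymes join acetyl groups into mevalonate. ACAT2, the thiolase that makes acetoacetyl-CoA, rose from 55.7 ± 2.43 to 239 ± 26.5 TPM (adjusted p = 3.13e-09, log2 difference 2.08 ± 0.074 SE). HMGCS1, HMG-CoA synthase (chromosome 5, 43289395 to 43313512, minus strand), was at 56.8, 58.9 and 53 TPM in the DMSO libraries and 229, 282 and 309 TPM in the amiodarone libraries. The lowest amiodarone library held several times the highest DMSO level, and the rise was 4.86-fold (adjusted p = 1.49e-07, log2 difference 2.25 ± 0.12 SE). The mevalonate kinase MVK rose from 24 ± 1.19 to 61 ± 5.94 TPM (adjusted p = 3.07e-07, log2 difference 1.31 ± 0.076 SE). PMVK, the next kinase, was at 44.1 ± 0.79 TPM with DMSO and 49.99 ± 2.64 TPM with amiodarone (adjusted p = 0.0568), which did not pass, although all 3 amiodarone libraries lay above the DMSO libraries. MVD, which decarboxylates mevalonate diphosphate to the isoprene unit, was at 47.5, 49.3 and 47 TPM in the DMSO libraries and 219, 253 and 242 TPM in the amiodarone libraries. It rose 4.97-fold (adjusted p = 1.31e-10, log2 difference 2.29 ± 0.055 SE), with no overlap between the groups.

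The isoprene units are then joined into squalene. The isomerase IDI1 rose from 64.2 ± 1.66 to 246 ± 33.9 TPM (adjusted p = 1.52e-07, log2 difference 1.91 ± 0.10 SE). FDPS, farnesyl diphosphate synthase (chromosome 1, 155308748 to 155320666, plus strand), was at 277, 270.4 and 261 TPM in the DMSO libraries and 1273, 1395 and 1375 TPM in the amiodarone libraries. It was the most abundant transcript of the pathway in every library compared and rose 5-fold (adjusted p = 2.11e-11, log2 difference 2.32 ± 0.045 SE), the lowest adjusted p of any gene tested. FDFT1, squalene synthase, rose from 192 ± 7.25 to 661 ± 51 TPM (adjusted p = 1.91e-09, log2 difference 1.77 ± 0.06 SE). SQLE, the squalene epoxidase that is a further control point of the pathway, was at 72.5, 70.01 and 77.6 TPM in the DMSO libraries and 205, 213 and 245 TPM in the amiodarone libraries. Its amiodarone libraries all lay above the DMSO libraries (adjusted p = 6.24e-08, log2 difference 1.57 ± 0.076 SE). LSS, which closes the ring system to lanosterol, rose from 25 ± 1.9 to 90.3 ± 4.99 TPM (adjusted p = 1.09e-08, log2 difference 1.81 ± 0.072 SE).

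Lanosterol is trimmed to cholesterol by oxidases, reductases and isomerases. CYP51A1, the demethylase that azole drugs block, rose from 48.2 ± 2.36 to 151 ± 17.2 TPM (adjusted p = 6.24e-08, log2 difference 1.62 ± 0.079 SE). The sterol reductase TM7SF2 rose from 23.4 ± 2.85 to 68.9 ± 7.06 TPM (adjusted p = 2.39e-05, log2 difference 1.52 ± 0.14 SE). LBR, a lamin B receptor of the nuclear envelope with the same reductase activity, was at 50.8 ± 4.25 TPM with DMSO and 57.7 ± 8.53 TPM with amiodarone (adjusted p = 0.292), with overlapping groups. MSMO1, a sterol C4 methyl oxidase, was at 26.4, 26.2 and 26.2 TPM in the DMSO libraries and 131, 134 and 159.8 TPM in the amiodarone libraries, with the lowest amiodarone library far above all DMSO libraries (adjusted p = 3.53e-09, log2 difference 2.38 ± 0.086 SE). NSDHL and HSD17B7, its partners in removing the C4 methyl groups, rose by 1.08 and 1.74. The isomerase EBP rose from 152 ± 5.33 to 464 ± 17.3 TPM (adjusted p = 5.21e-10, log2 difference 1.60 ± 0.047 SE). SC5D, the desaturase, rose from 17.7 ± 1.89 to 47.1 ± 6.93 TPM (adjusted p = 4.15e-05, log2 difference 1.36 ± 0.13 SE). DHCR7, whose loss causes Smith-Lemli-Opitz syndrome, rose from 129.8 ± 6.22 to 406 ± 23.5 TPM (adjusted p = 1.64e-09, log2 difference 1.64 ± 0.053 SE). FDPS and HSD17B7 have pseudogene copies in the genome, so reads shared with copies leave their levels uncertain.

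**Figure D2:**
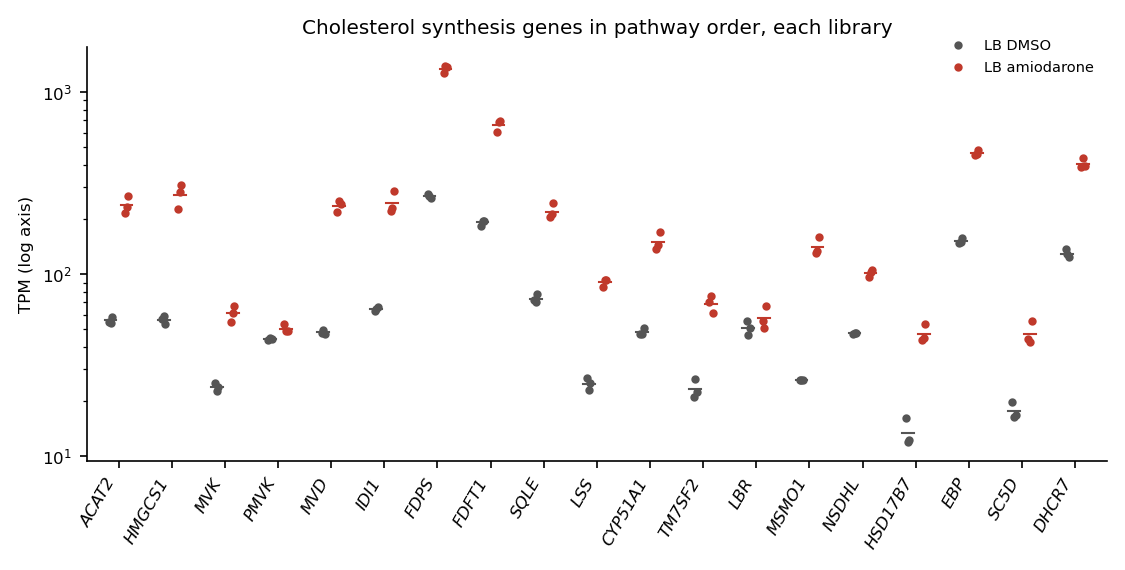
TPM on a log axis for 19 cholesterol synthesis genes in pathway order, with a dot for each library (grey DMSO, red amiodarone) and a line at each group mean. The red dots lie above the grey dots for every gene drawn except LBR, where the groups overlap.

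Promoter stretches of 3 of the genes that rose most in the pathway are shown for the CCAAT boxes that commonly stand near SREBP sites. The sequences are from RefSeq (GRCh38.p14), run 5′ to 3′ on the gene's strand up to the base before its start site, and have CCAAT on either strand (ATTGG where it lies on the other) in capitals. They are FDPS, chr1:155308666-155308865, plus strand; MVD, chr16:88663092-88663291, minus strand; and HMGCS1, chr5:43313413-43313612, minus strand. FDPS and MVD hold 3 such boxes each and HMGCS1 holds 2. Start sites are those of RefSeq and can lie inside the gene bounds given above, which are those of GENCODE 29 on GRCh38 and span all isoforms.
FDPS: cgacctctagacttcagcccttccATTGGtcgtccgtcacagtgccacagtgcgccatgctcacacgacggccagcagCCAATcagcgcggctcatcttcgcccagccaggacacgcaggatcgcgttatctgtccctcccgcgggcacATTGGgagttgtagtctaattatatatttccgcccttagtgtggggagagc
MVD: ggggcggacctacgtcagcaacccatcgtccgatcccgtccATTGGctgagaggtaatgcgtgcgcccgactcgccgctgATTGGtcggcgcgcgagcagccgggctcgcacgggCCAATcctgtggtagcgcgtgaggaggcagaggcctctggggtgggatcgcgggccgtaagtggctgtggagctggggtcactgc
HMGCS1: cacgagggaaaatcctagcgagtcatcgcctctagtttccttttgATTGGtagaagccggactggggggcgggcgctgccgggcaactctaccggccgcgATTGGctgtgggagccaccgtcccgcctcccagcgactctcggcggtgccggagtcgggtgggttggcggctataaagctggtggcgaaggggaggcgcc
In windows from 250 bases before to 50 after the start, CCAAT was found in 12 of the 16 pathway genes with a listed promoter (75%). It was found in 36.8% of the 10228 tested genes matched by symbol and in 35.7% of all 27305 promoters of the table, and also in 24 of 31 cell cycle genes. TCACNCCAC, the core of the classical sterol regulatory element, was in none of the 16 windows on either strand and in 1.15% of all promoters. A match is a run of letters and was not tested for binding.

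SREBP control and LDL uptake genes rose in part: 9 of 16 rose, none fell, and the median was 0.50. Leave-one-out fits called 7 or 8 of them higher. INSIG1 (chromosome 7, 155297776 to 155310235, plus strand), which holds SCAP and its SREBP in the endoplasmic reticulum and is itself a target of SREBP, was at 38.8, 39.1 and 42.8 TPM in the DMSO libraries and 160.3, 173 and 187 TPM in the amiodarone libraries. All amiodarone libraries lay well above the DMSO libraries (4.32-fold, adjusted p = 1.49e-08, log2 difference 2.08 ± 0.087 SE). STARD4, a cytosolic sterol carrier, rose from 12.9 ± 0.669 to 41.9 ± 3.68 TPM (adjusted p = 6.24e-08, log2 difference 1.62 ± 0.079 SE). The gene for SREBP2, SREBF2, rose from 41.7 ± 1.75 to 60.9 ± 3.54 TPM (adjusted p = 0.000994, log2 difference 0.53 ± 0.076 SE). SREBF1, which encodes the SREBP1 forms that favour fatty acid genes, was at 202 ± 7.37 TPM with DMSO and 207 ± 12.1 TPM with amiodarone (adjusted p = 0.86), with overlapping groups.

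Most genes of fatty acid synthesis and desaturation rose as well, 13 of 15 with none lower and a median of 0.81. ACSS2, which makes acetyl-CoA from acetate, was at 21.7, 21.8 and 19.1 TPM in the DMSO libraries and 94, 131 and 122 TPM in the amiodarone libraries. No DMSO library came near the amiodarone libraries (5.53-fold, adjusted p = 6.72e-08, log2 difference 2.40 ± 0.12 SE). FASN, fatty acid synthase, rose from 167 ± 6.52 to 383 ± 29.2 TPM (adjusted p = 1.04e-06, log2 difference 1.19 ± 0.079 SE). SCD, the desaturase that makes oleic acid, was at 589, 536 and 563 TPM in the DMSO libraries and 1658, 1702 and 1722 TPM in the amiodarone libraries. The groups were far apart at this high level (3.01-fold, adjusted p = 1.03e-06, log2 difference 1.59 ± 0.10 SE). The polyunsaturated fatty acid desaturases FADS1 and FADS2 rose from 211 ± 8.62 to 559 ± 9.08 TPM (adjusted p = 2.54e-08, log2 difference 1.40 ± 0.062 SE) and from 442 ± 15.8 to 1129 ± 21.1 TPM (adjusted p = 9.16e-07, log2 difference 1.35 ± 0.088 SE). ME1, which makes NADPH for lipid synthesis and is also counted among NRF2 targets, rose from 64.9 ± 1.59 to 97.8 ± 6.43 TPM (adjusted p = 0.000256, log2 difference 0.58 ± 0.07 SE).

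The lysosomal cholesterol genes NPC1, NPC2 and LIPA rose. The cholesterol transport list had 5 of 22 genes higher (median 0.21), and 4 of those 5 held in all leave-one-out fits. NPC1, the membrane protein that exports cholesterol, was at 42, 41 and 39.8 TPM in the DMSO libraries and 89.3, 81.6 and 85.5 TPM in the amiodarone libraries, and its soluble partner NPC2 was at 219.8, 221 and 199 TPM in the DMSO libraries and 414, 427 and 402 TPM in the amiodarone libraries. LIPA, the acid lipase that frees cholesterol from its esters, rose from 61.5 ± 2.87 to 111 ± 6.06 TPM (adjusted p = 5.27e-06, log2 difference 0.84 ± 0.066 SE). In each of these genes the 3 amiodarone libraries lay above the DMSO libraries, with adjusted p = 9.16e-07, log2 difference 1.04 ± 0.068 SE for NPC1 and adjusted p = 1.24e-06, log2 difference 0.95 ± 0.064 SE for NPC2. STARD4 is also in this list.

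LXR is the receptor for oxysterols that drives cholesterol efflux. Of 12 LXR receptors and targets tested, 2 rose (16.7%), 1 fell (8.33%) and 9 did not pass. Over all tested genes 4.93% rose and 3.78% fell. Neither rise among the 12 held in all leave-one-out fits. ABCG1, an efflux transporter, was at 3.96, 3.54 and 2.51 TPM in the DMSO libraries and 1.33, 1.19 and 0.75 TPM in the amiodarone libraries. The amiodarone libraries were all below the DMSO libraries (3.06-fold lower, adjusted p = 0.00547, log2 difference -1.05 ± 0.19 SE). ABCA1, the partner transporter, was at 6.23 ± 0.554 TPM with DMSO and 4.15 ± 0.791 TPM with amiodarone (adjusted p = 0.069), also with no overlap between groups but not past the test. APOC1, an apolipoprotein, rose from 347 ± 27.2 to 520.4 ± 6.04 TPM (adjusted p = 0.0484, log2 difference 0.59 ± 0.17 SE), a call lost whichever library was left out (leave-one-out adjusted p 0.0825 to 0.146).

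Among lipid droplet genes 2 of 17 rose. PLIN2, the protein that coats droplets, was at 43.2, 44.5 and 42.1 TPM in the DMSO libraries and 89.5, 85.6 and 92.6 TPM in the amiodarone libraries, with no overlap (adjusted p = 1.25e-07, log2 difference 1.03 ± 0.054 SE). PNPLA3, a droplet acyl hydrolase, rose from 1.9 ± 0.609 to 4.28 ± 1.38 TPM (adjusted p = 0.0209, log2 difference 0.85 ± 0.20 SE), a call lost without LB DMSO replicates 1 or 2 or without LB amiodarone replicates 2 or 3 (leave-one-out adjusted p 0.0149 to 0.0796). Of 18 genes of fatty acid oxidation and PPAR 1 rose (5.56%), near the 4.93% over all tested genes, and none fell. It was HADHA, a subunit of the mitochondrial trifunctional protein, from 108 ± 1.54 to 142 ± 3.99 TPM (adjusted p = 5.89e-05, log2 difference 0.39 ± 0.039 SE). Phospholipid synthesis had 4 of 26 genes higher, and 3 held in all leave-one-out fits. LPIN1, a phosphatidate phosphatase, rose from 16.3 ± 2.38 to 45 ± 7.13 TPM (adjusted p = 4.53e-05, log2 difference 1.41 ± 0.14 SE). PCYT2, the regulating enzyme of phosphatidylethanolamine synthesis, rose from 28.6 ± 0.18 to 71.3 ± 6.4 TPM (adjusted p = 3.06e-07, log2 difference 1.29 ± 0.074 SE). CHKA, choline kinase, rose by 0.74.

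Amiodarone is known to inhibit lysosomal phospholipase activity, so phospholipases were set beside these lists. Of 25 phospholipase and remodelling genes 1 rose and 1 fell, shares near those over all genes. PLA2G15, the lysosomal phospholipase A2, was at 9.42 ± 2.09 TPM with DMSO and 11.1 ± 1.74 TPM with amiodarone (adjusted p = 0.389), with overlapping groups. LPCAT3, which places polyunsaturated chains in phospholipids, was at 40.00 ± 2.31 TPM with DMSO and 43.9 ± 0.796 TPM with amiodarone (adjusted p = 0.402). LPCAT1, which makes dipalmitoyl lecithin of surfactant, rose from 55.8 ± 2.4 to 66.2 ± 3.39 TPM (adjusted p = 0.0259, log2 difference 0.24 ± 0.059 SE), a call lost without LB DMSO replicates 2 or 3 or without LB amiodarone replicates 2 or 3 (leave-one-out adjusted p 0.039 to 0.0937). TAZ, here the symbol of tafazzin, which remodels cardiolipin, fell from 37 ± 0.343 to 29.8 ± 1.68 TPM (adjusted p = 0.0159, log2 difference -0.30 ± 0.067 SE), a call lost without LB DMSO replicate 3 or without LB amiodarone replicates 1 or 3 (leave-one-out adjusted p 0.0203 to 0.0599). Of 21 sphingolipid synthesis genes the ceramide synthases CERS1 and CERS4 rose, by 0.64 and 0.63. For CERS1 this was a call lost without LB DMSO replicates 1 or 3 or without LB amiodarone replicates 1 or 2 (leave-one-out adjusted p 0.0219 to 0.0935), and for CERS4 a call lost without LB DMSO replicate 1 (leave-one-out adjusted p 0.0235 to 0.0515).

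Many lysosomal genes rose as well. Of 40 hydrolases and activators 19 rose and 1 fell (median 0.22). Without LB DMSO replicate 1 the rises numbered 11, and without each other library 13 to 15. The fall was called in none of those fits. NEU1, the sialidase of lysosomes (chromosome 6, 31857659 to 31862906, minus strand), was at 66.4, 65.8 and 62.3 TPM in the DMSO libraries and 217, 211 and 213 TPM in the amiodarone libraries. These values did not approach each other (3.3-fold, adjusted p = 5.21e-10, log2 difference 1.71 ± 0.049 SE). ASAH1, acid ceramidase, was at 97.5, 109.5 and 108 TPM in the DMSO libraries and 190.1, 193 and 187 TPM in the amiodarone libraries, with no overlap (adjusted p = 9.03e-07, log2 difference 0.85 ± 0.055 SE). DNASE2, the acid nuclease, rose from 51.5 ± 3.68 to 80.7 ± 4.77 TPM (adjusted p = 6.23e-05, log2 difference 0.64 ± 0.065 SE), TPP1, the tripeptidyl peptidase lost in a childhood ceroid lipofuscinosis, from 73.6 ± 3.59 to 109 ± 7.33 TPM (adjusted p = 0.00223, log2 difference 0.55 ± 0.088 SE), and CTSD, the aspartic protease cathepsin D, from 514 ± 17.7 to 668 ± 34.1 TPM (adjusted p = 0.00279, log2 difference 0.38 ± 0.062 SE).

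Of 26 lysosomal membrane genes 14 rose and none fell (median 0.34). GPNMB, a glycoprotein of lysosome-related organelles, was at 2.73, 3.22 and 3.77 TPM in the DMSO libraries and 12.2, 13.9 and 10.9 TPM in the amiodarone libraries. Its DMSO libraries were all under 4 TPM and its amiodarone libraries all above 10 TPM (3.8-fold, adjusted p = 4.26e-05, log2 difference 1.65 ± 0.16 SE). SLC17A5, the sialic acid exporter, rose from 11.8 ± 0.306 to 24.1 ± 0.376 TPM (adjusted p = 0.0001, log2 difference 0.97 ± 0.10 SE). PIP4P1, a phosphoinositide phosphatase, rose by 0.60 and the chloride-proton exchanger CLCN7 from 57.7 ± 3.95 to 84.7 ± 3.11 TPM (adjusted p = 0.00325, log2 difference 0.55 ± 0.092 SE). LAMP1, an abundant membrane glycoprotein, was at 74.1 ± 0.809 TPM with DMSO and 81.9 ± 0.802 TPM with amiodarone (adjusted p = 0.0603), with no overlap between groups.

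The vacuolar ATPase, the proton pump that acidifies lysosomes, had 10 of 17 subunit genes higher and none lower (median 0.26). Leave-one-out fits called 7 or 8 of them. ATP6V1E1 rose from 108 ± 2.15 to 151 ± 3.99 TPM (adjusted p = 0.000151, log2 difference 0.48 ± 0.054 SE) and ATP6V1H from 29.1 ± 1.27 to 40.7 ± 0.624 TPM (adjusted p = 0.00421, log2 difference 0.47 ± 0.083 SE). ATP6V1D and the accessory subunit ATP6AP1 rose by 0.44 and 0.35. The genes of TFEB, Ragulator and mTORC1 control had 9 of 25 higher. RRAGD, a Rag GTPase that calls mTORC1 and TFEB to the lysosome, was at 6.61, 7.26 and 6.95 TPM in the DMSO libraries and 18.6, 21.1 and 22.7 TPM in the amiodarone libraries, each amiodarone library at more than any DMSO library (3-fold, adjusted p = 3.08e-06, log2 difference 1.45 ± 0.11 SE). Its paralog RRAGC rose from 13.4 ± 0.439 to 23.7 ± 1.34 TPM (adjusted p = 3.49e-05, log2 difference 0.77 ± 0.073 SE) and FNIP1, the folliculin partner that acts on them, from 7.17 ± 0.569 to 12.8 ± 1.22 TPM (adjusted p = 0.000622, log2 difference 0.75 ± 0.10 SE).

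Of 29 autophagy genes 5 rose and none fell, with a median of 0.14. SQSTM1, the receptor p62, was at 1796, 1806 and 1783 TPM in the DMSO libraries and 2839, 2735 and 2731 TPM in the amiodarone libraries, and no DMSO library reached the amiodarone libraries (adjusted p = 2.17e-07, log2 difference 0.62 ± 0.035 SE). OPTN, another receptor, rose from 34.2 ± 3.33 to 55.5 ± 1.97 TPM (adjusted p = 0.000357, log2 difference 0.69 ± 0.086 SE). WIPI1, a phosphoinositide-binding protein of forming autophagosomes, rose from 36 ± 2.12 to 57.4 ± 2.35 TPM (adjusted p = 0.00308, log2 difference 0.66 ± 0.11 SE) and GABARAP, which is joined to their membranes, from 470.2 ± 5.56 to 602 ± 21.6 TPM (adjusted p = 0.000829, log2 difference 0.35 ± 0.049 SE). GABARAPL1 was at 49.6 ± 1.83 TPM with DMSO and 55 ± 7.07 TPM with amiodarone (adjusted p = 0.687), with overlapping groups.

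The CACGTG E-box at the heart of TFEB elements is shown in capitals in the RefSeq promoters (GRCh38.p14) of NEU1 and CLCN7. Both genes rose and hold it, and were picked for that reason. The stretches run on the gene's strand up to the base before the start. They are NEU1, chr6:31862822-31862981, minus strand, and CLCN7, chr16:1475029-1475188, minus strand. NEU1 holds 1, beginning at -126 from the start, and CLCN7 holds 2, at -47 and -27. LAMP1, which did not pass, and CORO7 and PLK1, which fell, also hold it in their windows. So do RRAGC, FNIP1 and CTSD, which rose.
NEU1: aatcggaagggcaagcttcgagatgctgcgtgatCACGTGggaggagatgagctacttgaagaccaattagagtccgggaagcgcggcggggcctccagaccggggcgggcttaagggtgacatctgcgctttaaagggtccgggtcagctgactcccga
CLCN7: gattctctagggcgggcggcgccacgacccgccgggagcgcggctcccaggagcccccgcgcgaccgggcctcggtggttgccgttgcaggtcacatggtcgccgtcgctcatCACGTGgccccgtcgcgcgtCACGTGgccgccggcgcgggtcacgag
CACGTG was in 16.4% of the 523 matched promoters of genes that rose, in 10.7% of the 430 of genes that fell, in 10.3% of tested genes and in 7.43% of all promoters. By list it was in 5 of 25 hydrolase, 6 of 22 membrane, 4 of 12 vacuolar ATPase and 6 of 22 TFEB and Ragulator promoters, in 1 of 26 autophagy promoters, and also in 7 of 31 promoters of the cell cycle list, whose called members all fell, in 5 of 24 of the hypoxia and glycolysis list and in 3 of 8 of the serine and one-carbon list.

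Targets of ATF4 and its partner CHOP rose, 15 of 24 with none lower and a median of 0.40. TRIB3, a pseudokinase that dampens the response, was at 97.1, 93.7 and 106 TPM in the DMSO libraries and 259, 255 and 262 TPM in the amiodarone libraries. Its groups were far apart (2.62-fold, adjusted p = 1.91e-09, log2 difference 1.38 ± 0.046 SE). NUPR1, a small nuclear stress protein, rose 3.25-fold, from 22.3 ± 2.91 to 72.6 ± 5.69 TPM (adjusted p = 6.27e-05, log2 difference 1.66 ± 0.17 SE). DDIT3, which encodes CHOP, was at 24.1, 24.8 and 22.5 TPM in the DMSO libraries and 49.4, 49.2 and 48.7 TPM in the amiodarone libraries, with no overlap (adjusted p = 1.97e-06, log2 difference 1.02 ± 0.071 SE). CHAC1, which breaks down glutathione, rose from 15.1 ± 1.21 to 29.1 ± 2.41 TPM (adjusted p = 0.000121, log2 difference 0.90 ± 0.10 SE), and GDF15, a stress cytokine, from 297 ± 15.2 to 509 ± 29.5 TPM (adjusted p = 0.000683, log2 difference 0.78 ± 0.10 SE). ATF4 itself, which is mainly controlled in translation, rose by 0.32 and ASNS, asparagine synthetase, by 0.39.

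Other protein stress and amino acid lists held fewer calls. Of 14 serine and one-carbon genes 4 rose and 1 fell, with 2 to 3 higher in leave-one-out fits, and the serine enzymes PSPH and PSAT1 rose by 0.35 and 0.34. Among 11 amino acid transporters 3 rose, of which SLC1A4 alone (0.42) held in every leave-one-out fit. Of 18 tRNA synthetases 2 rose and 2 fell, with 0 to 2 and 0 to 2 in leave-one-out fits. Of 24 genes of endoplasmic reticulum chaperones and the unfolded protein response 3 rose, with 1 without LB DMSO replicate 1. HERPUD1, of the disposal of misfolded proteins, rose from 49.5 ± 4.11 to 64.9 ± 2.86 TPM (adjusted p = 0.0043, log2 difference 0.39 ± 0.068 SE). HSPA5, the chaperone BiP, was at 354 ± 14.8 TPM with DMSO and 379 ± 13.6 TPM with amiodarone (adjusted p = 0.276), with overlapping groups. Of 18 heat shock genes none rose and 1 fell, a call lost in 5 of 6 leave-one-out fits.

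TGATGNAA, the core to which ATF4 and CHOP-type dimers bind, is in capitals in the RefSeq promoters (GRCh38.p14) of CHAC1 and ASNS, shown because both genes rose and hold it in the window. They are CHAC1, chr15:40953241-40953470, plus strand, and ASNS, chr7:97872409-97872568, minus strand, and the match begins at -209 and at -68 from the start.
CHAC1: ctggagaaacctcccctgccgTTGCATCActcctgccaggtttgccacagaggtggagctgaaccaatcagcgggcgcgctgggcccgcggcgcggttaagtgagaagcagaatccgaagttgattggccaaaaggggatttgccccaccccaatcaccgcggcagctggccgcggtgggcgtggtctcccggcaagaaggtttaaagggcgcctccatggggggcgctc
ASNS: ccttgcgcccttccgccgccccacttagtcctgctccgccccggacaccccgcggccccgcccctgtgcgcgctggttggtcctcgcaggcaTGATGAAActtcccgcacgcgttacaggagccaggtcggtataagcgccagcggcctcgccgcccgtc
On either strand it was in 3 of the 22 matched promoters of the list (13.6%), in 1.49% of tested genes and in 3.67% of all promoters. It was in 5 of 10 promoters of the tRNA synthetase list, in 11 of 523 of genes that rose (2.10%) and in 0 of 53 of genes at least 2-fold higher. The list was drawn up from known targets, so its share says nothing of the genes that rose.

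The largest rise of any gene past the test was that of ALDOC, the brain-type aldolase of glycolysis (chromosome 17, 28573115 to 28577264, minus strand). ALDOC was at 4.84, 5.35 and 6.03 TPM in the DMSO libraries and 88.4, 97.1 and 99.8 TPM in the amiodarone libraries. It rose 17.6-fold (adjusted p = 3.23e-10, log2 difference 3.91 ± 0.10 SE). The hypoxia and glycolysis list, of which it is a member, had 13 of 28 genes higher and 1 lower, with a median of 0.24. ENO2, a neuron-type enolase, rose from 48.2 ± 5.37 to 93.3 ± 15.1 TPM (adjusted p = 0.00128, log2 difference 0.93 ± 0.14 SE). SLC2A3, the glucose transporter GLUT3, was at 26.8, 25.7 and 28 TPM in the DMSO libraries and 46.4, 51.5 and 52.9 TPM in the amiodarone libraries, with no overlap (adjusted p = 5.35e-05, log2 difference 0.88 ± 0.088 SE). BNIP3L, a mitophagy receptor, rose from 46.1 ± 3.27 to 76 ± 6.57 TPM (adjusted p = 0.000221, log2 difference 0.71 ± 0.083 SE).

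ALDOC is shown because its promoter, unlike the 16 matched promoters of the cholesterol list, holds TCACNCCAC, which begins at -138 and is in capitals. Its window also holds CACGTG at -240, outside the stretch shown. The stretch is from RefSeq (GRCh38.p14), ALDOC, chr17:28576896-28577095, minus strand.
ALDOC: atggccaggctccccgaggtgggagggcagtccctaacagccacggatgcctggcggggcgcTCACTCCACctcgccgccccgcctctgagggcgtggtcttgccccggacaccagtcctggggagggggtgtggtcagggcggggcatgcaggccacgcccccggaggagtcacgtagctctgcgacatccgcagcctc
The element was in 15 of the 523 matched promoters of genes that rose (2.87%) and in 0.98% of tested genes. Among genes at least 2-fold higher it was in 1 of 53 (1.89%), which is ALDOC.

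A group of interferon-stimulated genes rose from low levels. Of 34 listed genes 25 were tested, and the rest, RSAD2, MX2 and OAS2 among them, had means under 1 TPM. Of the 25 tested 8 rose and none fell (median 0.23), and without LB DMSO replicate 3 the rises numbered 5. IFIT1, which binds foreign RNA caps, was at 5.62, 4.91 and 4.36 TPM in the DMSO libraries and 15.6, 14.3 and 12.2 TPM in the amiodarone libraries. Its neighbour IFIT2 was at 3.04, 3.25 and 2.51 TPM in the DMSO libraries and 10.3, 11.1 and 7.84 TPM in the amiodarone libraries, and IFIT3 was at 4.08, 4.44 and 3.6 TPM in the DMSO libraries and 12.5, 12.7 and 10.9 TPM in the amiodarone libraries. All DMSO libraries of these 3 genes were under 6 TPM and all amiodarone libraries above 7 TPM. The tests gave adjusted p = 0.000144, log2 difference 1.33 ± 0.15 SE for IFIT1, adjusted p = 2.94e-05, log2 difference 1.44 ± 0.13 SE for IFIT2 and adjusted p = 6.09e-06, log2 difference 1.37 ± 0.11 SE for IFIT3. OASL, an RNA-binding relative of the oligoadenylate synthetases, rose from 4.62 ± 0.693 to 10.3 ± 1.49 TPM (adjusted p = 0.000274, log2 difference 1.01 ± 0.12 SE). ISG15, a ubiquitin-like modifier, rose from 27.7 ± 3.82 to 49.9 ± 14.2 TPM (adjusted p = 0.0218, log2 difference 0.79 ± 0.19 SE), a call lost without LB DMSO replicates 1 or 3 or without LB amiodarone replicates 1 or 2 (leave-one-out adjusted p 0.00431 to 0.0898).

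Of 22 listed nucleic acid sensors and IRF or STAT factors 15 were tested, and the rest had means under 1 TPM. Of the 15, 1 rose (6.67%), near the 4.93% over all tested genes, and none fell. It was DDX58 (RIG-I, the sensor of viral RNA), from 2.18 ± 0.0709 to 3.6 ± 0.268 TPM (adjusted p = 0.016, log2 difference 0.53 ± 0.12 SE). The call was lost without LB DMSO replicate 2 or without LB amiodarone replicate 2 (leave-one-out adjusted p 0.0357 to 0.0636). MHC class I and peptide loading genes went both ways, 2 higher and 2 lower of 13, with 1 higher and 0 or 1 lower in each leave-one-out fit. TAPBP, the tapasin that loads peptides, rose by 0.25. TAP2, a peptide transporter, fell from 38.4 ± 6.41 to 24.3 ± 2.83 TPM (adjusted p = 0.0291, log2 difference -0.63 ± 0.16 SE), a call lost without LB DMSO replicates 2 or 3 or without LB amiodarone replicates 1 or 3 (leave-one-out adjusted p 0.0239 to 0.116). PSMB9, a subunit of the immunoproteasome, fell from 40.5 ± 3.31 to 27 ± 0.811 TPM (adjusted p = 0.0249, log2 difference -0.56 ± 0.14 SE), a call lost without LB DMSO replicates 1 or 2 or without LB amiodarone replicates 1, 2 or 3 (leave-one-out adjusted p 0.0437 to 0.0896). Among 22 inflammatory mediators 2 rose, and leave-one-out fits called 0 to 2. PTGS2, cyclooxygenase-2, was at 137, 139 and 149.6 TPM in the DMSO libraries and 217, 228 and 250.2 TPM in the amiodarone libraries, with no overlap (adjusted p = 0.0123, log2 difference 0.70 ± 0.15 SE), a call lost without LB amiodarone replicate 3 (leave-one-out adjusted p 0.027 to 0.0542). CXCL8 was near the filter at 1.33 ± 0.0987 TPM with DMSO and 1.6 ± 0.374 TPM with amiodarone (adjusted p = 0.653).

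IFIT1 and IFIT3 are shown for the interferon response core GAAANNGAA because both rose and hold it. IFIT2 and OASL rose without a listed match. Whether these lack the core or lack a matched promoter is not given here. The core is in capitals on either strand (as its reverse complement where it lies on the other), in RefSeq promoters (GRCh38.p14) up to the base before the start. They are IFIT1, chr10:89392463-89392622, plus strand, and IFIT3, chr10:89327807-89327996, plus strand. Each holds 2 matches, at -115 and -102 in IFIT1 and at -155 and -121 in IFIT3.
IFIT1: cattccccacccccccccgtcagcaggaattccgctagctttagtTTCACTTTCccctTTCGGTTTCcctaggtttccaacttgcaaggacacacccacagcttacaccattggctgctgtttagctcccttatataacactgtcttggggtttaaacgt
IFIT3: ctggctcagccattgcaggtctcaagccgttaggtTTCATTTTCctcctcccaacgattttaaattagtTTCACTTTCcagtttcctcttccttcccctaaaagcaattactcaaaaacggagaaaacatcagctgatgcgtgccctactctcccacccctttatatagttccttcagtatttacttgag
GAAANNGAA was in 17 of the 21 matched promoters of the list (81.0%), in 6.26% of tested genes and in 8.29% of all promoters. The list was drawn up from genes known to answer interferon, so this share describes the whole list and says nothing of the genes that rose. Among matched promoters the core was in 31 of 523 of genes that rose (5.93%). It was in 7 of 53 of genes at least 2-fold higher (13.2%).

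Cell cycle and replication genes fell by small amounts. Of 40 tested 21 fell and none rose, with a median of -0.29, and the falls numbered 12 without LB DMSO replicate 3, 12 without LB amiodarone replicate 2 and 14 to 20 without each other library. CDC20, which activates the anaphase-promoting complex, was at 124, 119 and 119.95 TPM in the DMSO libraries and 85.5, 77.3 and 84 TPM in the amiodarone libraries. PLK1, a mitotic kinase, was at 106, 94.6 and 104 TPM in the DMSO libraries and 75, 62.6 and 69.1 TPM in the amiodarone libraries. Neither gene's groups overlapped (adjusted p = 0.000721, log2 difference -0.55 ± 0.075 SE for CDC20 and adjusted p = 0.000231, log2 difference -0.55 ± 0.065 SE for PLK1). MCM5, a subunit of the replicative helicase, fell from 124 ± 6.5 to 87.7 ± 6.2 TPM (adjusted p = 0.000609, log2 difference -0.50 ± 0.066 SE), and AURKB, the kinase of the chromosomal passenger complex, from 121 ± 2.76 to 91.5 ± 2.04 TPM (adjusted p = 0.00653, log2 difference -0.40 ± 0.075 SE). H2AFX, the histone variant marked at DNA breaks, fell from 127 ± 5.27 to 99.8 ± 7 TPM (adjusted p = 0.00866, log2 difference -0.34 ± 0.068 SE). CDKN1A, the inhibitor p21 and a target of p53, was at 182 ± 32.1 TPM with DMSO and 198 ± 37 TPM with amiodarone (adjusted p = 0.754), with overlapping groups.

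Some proteasome subunits fell. Of 32 genes 9 fell and none rose (median -0.13), with 4 without LB DMSO replicate 1 or 2, 3 without LB DMSO replicate 3, 10 without LB amiodarone replicate 1, 4 without replicate 2 and 5 without replicate 3. PSMB3 fell from 476 ± 14.7 to 407 ± 15.2 TPM (adjusted p = 0.00675, log2 difference -0.23 ± 0.043 SE). Of 36 nuclear genes of the respiratory chain 4 fell, and leave-one-out fits called 0 to 2. No mitochondrially encoded gene of 13 passed (median -0.12), and MT-CO2, a subunit of cytochrome oxidase, was at 13204 ± 1259 TPM with DMSO and 11353 ± 2061 TPM with amiodarone (adjusted p = 0.309). The median GC content of the longest transcript was 56.6% among genes that fell, 48.0% among genes that rose and 48.8% over all tested genes, and median mean TPM was 63.1, 32.3 and 15.1. The part of GC content and level in these falls was not tested.

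The redox, iron and drug response lists gave calls that were small in number but not in share. Rises took 11.5% of NRF2 and glutathione genes, 36.4% of iron genes and 16.7% of drug metabolism genes. Over all tested genes the share was 4.93%. HMOX1, the heme oxygenase that NRF2 drives, was at 204 ± 13.7 TPM with DMSO and 266 ± 20.1 TPM with amiodarone (adjusted p = 0.0588), with no overlap between groups. FTL, the ferritin light chain and the most abundant transcript in all 6 libraries, rose from 26137 ± 546 to 31741 ± 995 TPM (adjusted p = 0.0118, log2 difference 0.28 ± 0.058 SE), a call lost without LB DMSO replicate 2 (leave-one-out adjusted p 0.0341 to 0.0544); FTL has many pseudogene copies, and its level is uncertain for that reason. Of 11 iron genes 4 rose, 2 of them without LB DMSO replicate 2. ACO1, the iron-sensing aconitase, rose by 0.44, the ferric reductase CYBRD1 by 0.41 and the transferrin receptor TFRC by 0.29, the last a call lost without LB DMSO replicates 1 or 2 or without LB amiodarone replicate 3 (leave-one-out adjusted p 0.0192 to 0.0672). In the drug metabolism list 3 of 18 rose. TIPARP and CYP1B1, targets of the aryl hydrocarbon receptor, rose from 18.1 ± 0.992 to 29.5 ± 3.9 TPM (adjusted p = 0.00845, log2 difference 0.66 ± 0.13 SE) and from 106 ± 3.37 to 138 ± 6.98 TPM (adjusted p = 0.000738, log2 difference 0.37 ± 0.051 SE). No metallothionein or zinc gene of 6 passed, and MT2A was at 220.3 ± 9.72 TPM with DMSO and 251 ± 10.4 TPM with amiodarone (adjusted p = 0.2).

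The calls among surfactant genes did not hold in every leave-one-out fit. Of 16 listed surfactant and lamellar body genes 9 were tested, and the rest had means under 1 TPM. Of the 9, 1 rose (11.1%) and 2 fell (22.2%), against 4.93% and 3.78% over all tested genes (median -0.21). The rise was that of LPCAT1, given above. SFTPB, the surfactant protein needed for lamellar bodies, was at 245, 264 and 232 TPM in the DMSO libraries and 194, 212 and 193 TPM in the amiodarone libraries. ABCA3, which loads lipid into them, was at 350.2, 279.6 and 312 TPM in the DMSO libraries and 261, 239.8 and 269 TPM in the amiodarone libraries. Both groups stayed apart, with adjusted p = 0.0233, log2 difference -0.30 ± 0.073 SE for SFTPB, a call lost without LB DMSO replicates 1 or 2 or without LB amiodarone replicates 1 or 3 (leave-one-out adjusted p 0.0317 to 0.0926), and adjusted p = 0.0315, log2 difference -0.29 ± 0.073 SE for ABCA3, a call lost without LB DMSO replicates 1 or 3 or without LB amiodarone replicates 1 or 2 (leave-one-out adjusted p 0.00949 to 0.115). SFTPC, the surfactant protein found in type II cells, was at 589.9 ± 66.3 TPM with DMSO and 509 ± 45.8 TPM with amiodarone (adjusted p = 0.392), with overlapping groups, and SFTPD at 299.96 ± 18.2 TPM with DMSO and 256 ± 14.8 TPM with amiodarone (adjusted p = 0.155), without overlap. Of 7 alveolar type I and caveolar genes none passed. CAV1, the main caveolar protein, was at 139 ± 14.7 TPM with DMSO and 107 ± 13 TPM with amiodarone (adjusted p = 0.0796) and CAVIN1 at 128 ± 6 TPM with DMSO and 112 ± 5.66 TPM with amiodarone (adjusted p = 0.416), both without overlap. In bulk RNA, fewer cells of a type and less RNA per cell cannot be told apart.

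Among 19 epithelial keratin and junction genes 1 rose (5.26%), near the 4.93% over all tested genes, and none fell. It was KRT19, a keratin of simple epithelia, at 50.04, 59 and 45.1 TPM in the DMSO libraries and 97.8, 124 and 84.7 TPM in the amiodarone libraries. The amiodarone values all lay above those with DMSO (adjusted p = 0.0034, log2 difference 0.97 ± 0.16 SE). Of 32 genes of mesenchymal transition and matrix 1 rose and 1 fell, near the share over all genes, and both calls were lost in most leave-one-out fits. Among 19 immediate early genes 3 rose and 1 fell, with IER3, an early stress gene, higher by 0.42 and DUSP4, a MAP kinase phosphatase, by 0.35. Of 24 p53 targets 2 rose and 1 fell, of 26 NRF2 and glutathione genes 3 rose and 1 fell, of 30 ribosomal protein genes 1 fell, and of 8 genes of thyroid hormone action, listed because amiodarone carries iodine and disturbs the thyroid, none passed. These falls were lost in most leave-one-out fits.

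**Figure D3:**
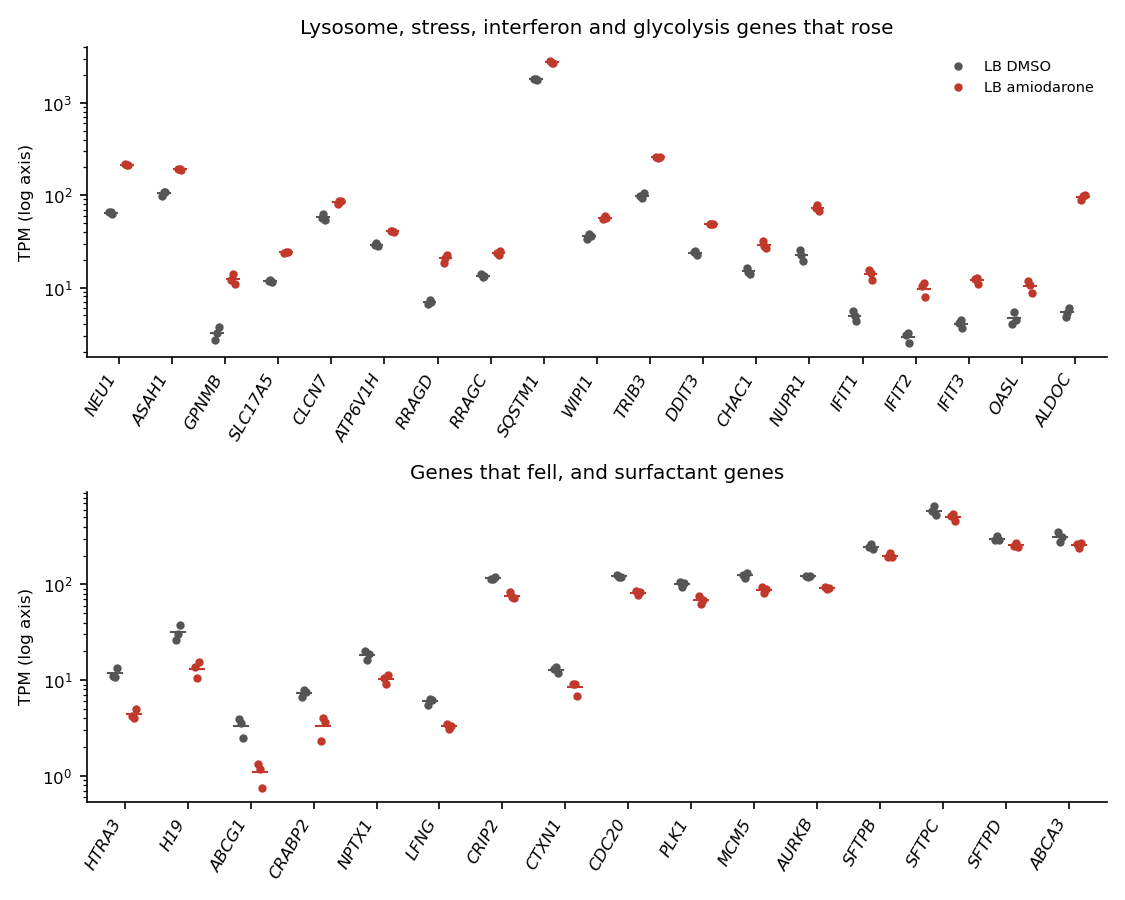
TPM on log axes for each library (grey DMSO, red amiodarone, line at the group mean), with lysosome, stress, interferon and glycolysis genes above and genes that fell with surfactant genes below. The upper genes show no overlap between groups; below, SFTPC overlaps and SFTPB, SFTPD and ABCA3 differ by less than HTRA3, H19 or ABCG1.

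Several of the largest differences belonged to other functions. NPR1, the receptor of atrial natriuretic peptide, was at 2.62, 2.27 and 2.23 TPM in the DMSO libraries and 10.9, 10.2 and 9.88 TPM in the amiodarone libraries, with no overlap (4.35-fold, adjusted p = 6.60e-07, log2 difference 1.75 ± 0.11 SE). HTRA3, a secreted serine protease, was at 11.2, 10.8 and 13.4 TPM in the DMSO libraries and 4.22, 4.03 and 4.96 TPM in the amiodarone libraries. All amiodarone libraries lay below the DMSO libraries (2.67-fold lower, adjusted p = 0.00198, log2 difference -1.24 ± 0.19 SE). H19, an imprinted long noncoding RNA (chromosome 11, 1995176 to 2001470, minus strand), was at 26.6, 30.6 and 37.4 TPM in the DMSO libraries and 13.6, 10.6 and 15.4 TPM in the amiodarone libraries, with no overlap (adjusted p = 0.00234, log2 difference -1.20 ± 0.19 SE). MYCBP, a MYC-binding protein, fell from 21.5 ± 1.35 to 9.4 ± 4.77 TPM (adjusted p = 0.0138, log2 difference -1.22 ± 0.26 SE), a call lost without LB DMSO replicate 1 (leave-one-out adjusted p 0.00143 to 0.0527). CRABP2, which carries retinoic acid to the nucleus, fell from 7.34 ± 0.659 to 3.33 ± 0.883 TPM (adjusted p = 0.00287, log2 difference -0.96 ± 0.16 SE).

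Other falls among the 15 largest were those of RRAD, a Ras-related GTPase, from 13.4 ± 2.2 to 7 ± 1.46 TPM (adjusted p = 0.00951, log2 difference -0.85 ± 0.17 SE), NPTX1, a neuronal pentraxin, from 18.3 ± 1.99 to 10.3 ± 1.11 TPM (adjusted p = 0.00238, log2 difference -0.78 ± 0.12 SE), and LFNG, a glycosyltransferase that modifies Notch, from 6 ± 0.445 to 3.3 ± 0.191 TPM (adjusted p = 0.00407, log2 difference -0.70 ± 0.12 SE). CRIP2, a LIM-domain protein, was at 115, 113 and 119.8 TPM in the DMSO libraries and 82.9, 73.4 and 72 TPM in the amiodarone libraries. Its groups lay apart (adjusted p = 0.000622, log2 difference -0.60 ± 0.08 SE). CTXN1, cortexin, fell from 12.9 ± 0.908 to 8.4 ± 1.29 TPM (adjusted p = 0.0059, log2 difference -0.57 ± 0.11 SE). CORO7, a coronin of the Golgi, fell from 12.5 ± 1.7 to 7.17 ± 0.886 TPM (adjusted p = 0.012, log2 difference -0.73 ± 0.15 SE), a call lost without LB DMSO replicate 2 (leave-one-out adjusted p 0.0206 to 0.0557).

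**Figure D4:**
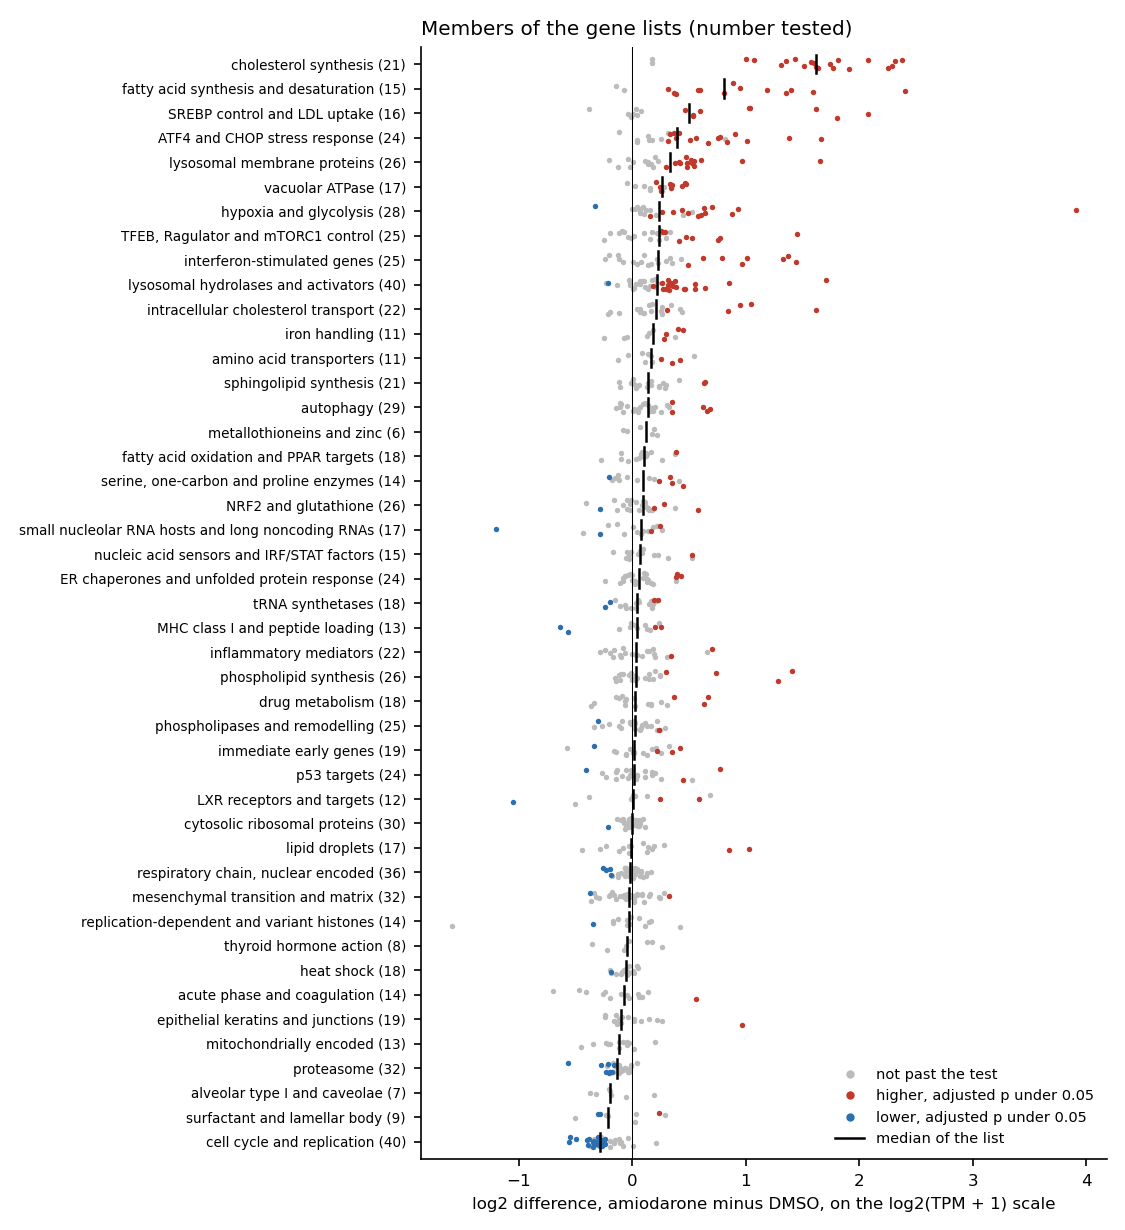
Each dot is a tested member of a gene list at its log2 difference, amiodarone minus DMSO; red and blue dots passed the test, black bars are list medians and numbers in brackets give the members tested. Among the lists drawn, those with at least 5 members tested, cholesterol synthesis has the highest median at 1.62 and cell cycle and replication the lowest at -0.29.

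The levels of these genes in the other groups of the series are set beside those above with no test, since those comparisons would share libraries with this one. FDPS was at 179, 189 and 176 TPM in A549 cells with DMSO and at 961, 928 and 939.5 TPM in LB cells with HPbCD and amiodarone, the latter between the LB DMSO and LB amiodarone levels. HMGCS1 was at 259, 237 and 270.03 TPM with HPbCD and amiodarone, within the range with amiodarone alone. NEU1 was at 21.9, 20.9 and 23.4 TPM in A549 cells and 238, 230.5 and 238 TPM with HPbCD and amiodarone. IFIT3 was at 1.35, 1.76 and 1.82 TPM in A549 cells and at 45.9, 41.8 and 37.9 TPM with HPbCD and amiodarone, above the level with amiodarone alone in each library. ABCG1 was at 4.17, 3.05 and 4.11 TPM in A549 cells and 1.34, 1.87 and 0.92 TPM with HPbCD and amiodarone. ASNS was at 92.2, 87.6 and 79.9 TPM with HPbCD and amiodarone. H19 was at 6.81, 4.91 and 7.89 TPM in A549 cells, below every LB DMSO library.

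**Figure D5:**
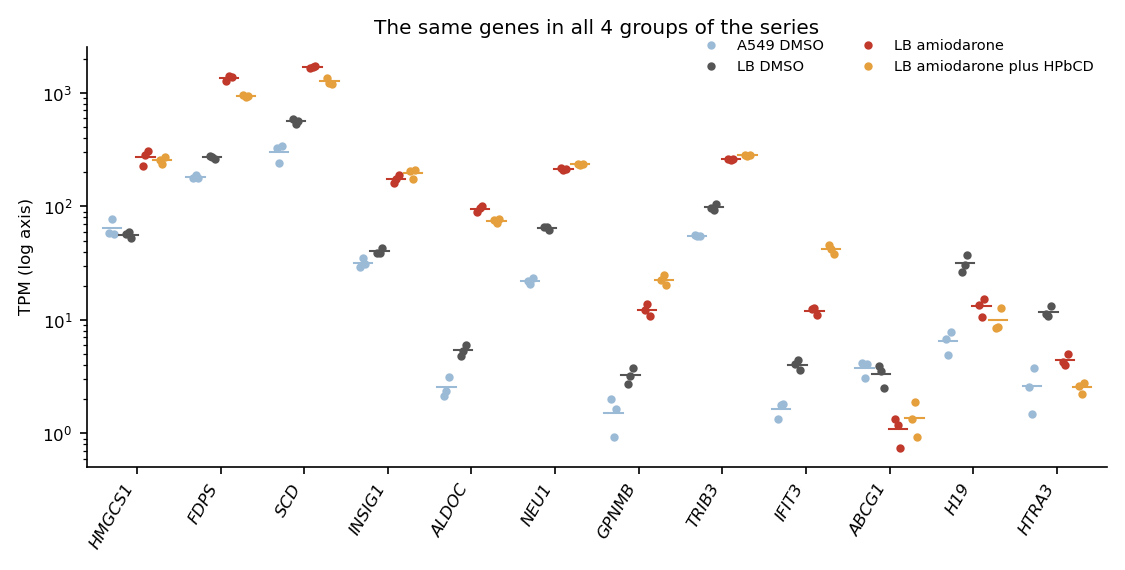
TPM on a log axis in each of the 12 libraries for 12 genes, with 3 dots and a mean line for each of the 4 groups. FDPS and SCD with HPbCD and amiodarone lie between the LB DMSO and LB amiodarone levels, while IFIT3 lies above both.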

How the data were processed

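Total RNA was made into libraries with a stranded mRNA kit, per the labels' protocols. The authors deposited gene-level TPM, and STAR 2.7.3a, RSEM 1.3.1 and the build GRCh38 are named per the submitters' processing notes, with the gene annotation not given in the sources used here. Reads that fit several near-identical genes are divided by RSEM, and whether strand was used in counting is not stated. The table has 57189 rows, of which 37 carried no values.

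The members and lists were chosen with earlier results of these data known. Genes averaging 1 TPM or more over the libraries compared were fitted as log2(TPM + 1) in limma 3.58.1 (R 4.3.3) with a mean-variance trend, over all 12 libraries in 4 groups (8 residual degrees of freedom), and the contrast LB amiodarone minus LB DMSO was tested two-sided with Benjamini-Hochberg adjustment at 0.05. TPM gives no depth, so no count test and no counting interval was possible; the fit was checked on simulated data. Named genes are the 15 largest rises and falls past the test without overlap and with at least 5 TPM in the higher group (pseudogenes, antisense, small RNA, clone-named and Y-linked genes passed over), up to 4 called members a list by size, 34 fixed genes, and the 2 most abundant members of lists with no call. Of these 172 genes 121 are given here, and 21 others were chosen after their values were seen, 11 of them to describe the cholesterol pathway with SREBF2. A few genes of these lists are not reported here. Coordinates are from GENCODE 29. Alternatives changed the pseudocount, filter, scaling, model and libraries.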

Additional observations from a re-analysis of the deposited data

How the results depend on the processing

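TPM hides read depth, low genes are least precise, and 3 libraries a group limit every call. By setting, rises numbered 660 with a pseudocount of 0.1, 709 with 5, 502 with no filter, 691 with median-of-ratios scaling, 700 with quantile scaling and 813 with array weights. Falls, against 525, numbered 330 with no filter, 334 with no trend and 694 with array weights. With mitochondrially encoded genes removed there were 659 rises and 658 falls, so the excess of rises was gone. At least 2-fold rises numbered 48 with a pseudocount of 5, against 78. At least 2-fold falls, against 7, numbered 11 with a pseudocount of 0.1, 1 with 5 and 4 with a filter of 5 TPM. Over the fits that each left out 1 library, rises numbered 430 to 491, falls 205 to 345, at least 2-fold rises 71 to 86 and at least 2-fold falls 4 to 9; the cause was not tested beyond the smaller number of libraries. Of 142 genes named, 124 passed the test, 106 of them in every leave-one-out fit and 112 in every alternative that kept all libraries, and 6 of the 18 that did not pass did so in at least 1 such alternative. The single reversal of direction was CDKN1A, which did not pass and ranged from -0.017 (LB amiodarone replicate 2 left out) through -0.0047 (LB DMSO replicate 3 left out) to 0.253. Over all tested genes same-numbered libraries deviated together by correlations of -0.025 to 0.072, and 2 of 3 DMSO libraries correlated best with their own number. Such low values over all genes cannot exclude pairing that shows in only some genes, and the main fit did not pair libraries. A replicate block, which gives each number a shift shared by all 4 groups including A549 cells, gave 695 rises and 511 falls. Of these, 80 and 8 were at least 2-fold. With it ABCA1 (adjusted p = 0.0453), SFTPD (0.0356) and CAV1 (0.00149) passed and APOC1 (0.0648) did not, nor did SFTPC (0.0708) or CDKN1A (0.734), whose same-numbered libraries differ with the same sign in each number. It took LXR targets to 1 higher and 2 lower, tRNA synthetases to 4 higher, endoplasmic reticulum genes to 5 higher, heat shock genes to 2 lower and MHC class I genes to 1 higher. It added 1 fall each to cholesterol transport and to alveolar type I and caveolar genes, and left no call in the acute phase and fibroblast lists. Over all alternatives adjusted p ran from 0.0453 to 0.216 for ABCA1, 0.0356 to 0.564 for SFTPD, 0.00149 to 0.252 for CAV1, 0.000638 to 0.146 for APOC1, 0.0708 to 0.698 for SFTPC and 0.505 to 0.993 for CDKN1A.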

Other observations

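Of the 78 genes at least 2-fold higher, 34 belonged to none of the lists; those named here were chosen after their values were seen. AP1M2, an epithelial subunit of a clathrin adaptor, was at 61.6, 65.4 and 74.6 TPM in the DMSO libraries and 185, 197 and 183 TPM in the amiodarone libraries. It is among the clearest of these differences (2.8-fold, adjusted p = 1.97e-08, log2 difference 1.48 ± 0.063 SE), with no overlap. SLC2A6, the hexose transporter GLUT6, rose from 13.1 ± 0.514 to 36.6 ± 4.58 TPM (adjusted p = 5.79e-07, log2 difference 1.41 ± 0.087 SE). PFKFB2, which sets fructose 2,6-bisphosphate and so the pace of glycolysis, rose from 4.57 ± 0.428 to 12.1 ± 0.515 TPM (adjusted p = 6.01e-06, log2 difference 1.24 ± 0.10 SE). MIR210HG, the host transcript of a microRNA known from hypoxia, rose from 3.56 ± 0.936 to 12.3 ± 4.99 TPM (adjusted p = 0.0103, log2 difference 1.49 ± 0.30 SE).

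ACSL4, which activates arachidonic acid for phospholipids, was at 12.3, 13.7 and 18.3 TPM in the DMSO libraries and 30.4, 35.6 and 36.3 TPM in the amiodarone libraries, with no overlap (adjusted p = 0.000115, log2 difference 1.17 ± 0.13 SE). HSD17B12, a reductase of very long chain fatty acid elongation, rose from 89.1 ± 11 to 199.5 ± 22.5 TPM (adjusted p = 7.67e-06, log2 difference 1.16 ± 0.094 SE). TNFSF9, the ligand of 4-1BB, rose from 5.54 ± 0.355 to 13.3 ± 0.923 TPM (adjusted p = 5.30e-06, log2 difference 1.13 ± 0.088 SE), RTN4R, the Nogo receptor, from 2.75 ± 0.602 to 7.53 ± 0.744 TPM (adjusted p = 8.20e-05, log2 difference 1.19 ± 0.12 SE), and CDA, cytidine deaminase, from 1.37 ± 0.624 to 4.91 ± 1.38 TPM (adjusted p = 0.00383, log2 difference 1.33 ± 0.23 SE). ANKRD1, known as a target of YAP, rose from 3.66 ± 0.887 to 11.5 ± 3.08 TPM (adjusted p = 0.0197, log2 difference 1.41 ± 0.32 SE), a call lost without LB DMSO replicates 1 or 3 or without LB amiodarone replicate 2 (leave-one-out adjusted p 0.0374 to 0.0854).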
